A study of Mus musculus with 2 samples.

Results

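Connexins are the membrane proteins of gap junctions, and 7 connexin genes are described here from the 4183 rows of the authors' table comparing red light with untreated skin. Dorsal skin came from C57BL/6 mice aged 18 to 20 months. The untreated group received no treatment and the red light group received 8 J/cm² each day for 28 days; no transgene or other agent is named for either group. GEO describes 1 sample per group, and the deposited value of each gene is the authors' group mean in FPKM (fragments scaled for transcript length and for library size). How many libraries went into each mean is not stated in the sources used here. The members were chosen by symbol (Gja, Gjb or Gjc) from a table whose rows had themselves been selected on this same contrast, so the values below describe the connexins and are tested for nothing. No spread between animals can be given and no p-value is printed. The 7 members were Gja1, Gja3, Gja5, Gjb2, Gjb6, Gjc1 and Gjc3, out of 16 mouse connexin genes looked up. The other 9 (Gja4, Gja6, Gja10, Gjb1, Gjb5, Gjd2, Gjd3, Gjd4 and Gje1) are not analysed here, which says nothing about their level or change.

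Connexin subunits assemble into a hemichannel in the membrane of a cell, and hemichannels of adjoining cells dock to form a channel that passes ions and small molecules such as calcium-mobilising messengers. Cells combine different connexins, and the mix sets which molecules pass. In skin, Gjb2 (connexin 26) and Gjb6 (connexin 30) are connexins of epidermis and hair follicle, and mutations in either cause hereditary skin disease and deafness in humans. Gja1 (connexin 43) is the most widespread connexin and occurs in keratinocytes, fibroblasts, vessels and many other cells. Gja5 (connexin 40) is a connexin of arterial endothelium and the heart, and Gjc1 (connexin 45) of smooth muscle and the heart. Gjc3 (connexin 29) belongs to myelinating glia. Gja3 (connexin 46) is best known from the fibre cells of the eye lens.

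Connexins stood in the table with both labels. Epithelial Gjb2 and Gjb6, widespread Gja1 and lens-type Gja3 were higher in red light skin, and vascular Gja5 and Gjc1 and glial Gjc3 were lower. In all, 4 connexins were labelled higher, in a table in which the authors labelled 38.6% of rows higher. A further 3 were labelled lower, beside 61.4% of rows. Because the rule drew on this contrast, nothing is read from these shares. The connexins labelled higher spanned 8.34-fold to 206-fold, and those labelled lower 2.06-fold to 5.71-fold. For comparison, the median listed gene labelled higher differed by 3.74-fold and the median gene labelled lower by 3.09-fold. The smallest connexin difference, that of Gja5, lies just inside the 2.001-fold at which the table's rows begin.

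**Figure D1:**
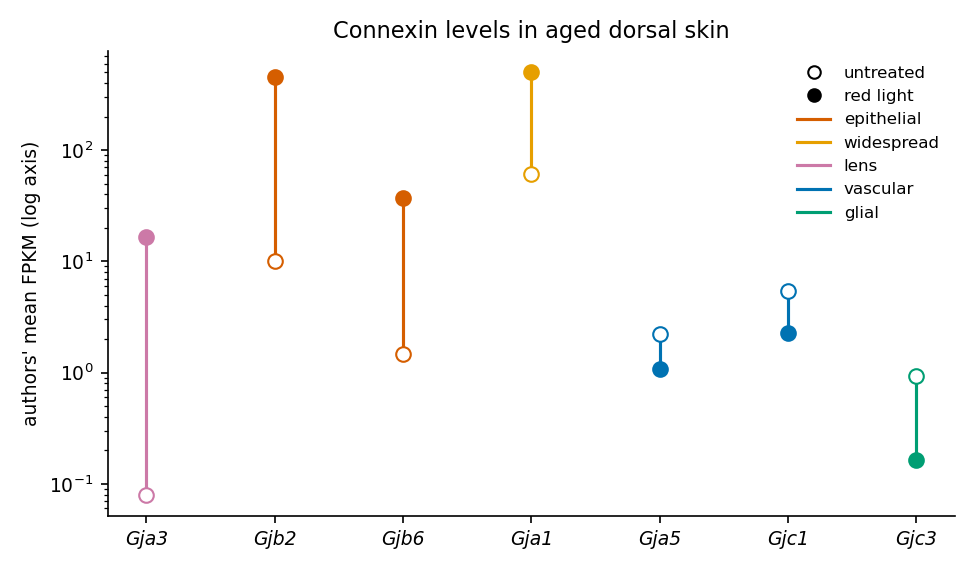
The authors' mean FPKM of the 7 connexins on a log axis, with open circles for untreated skin, filled circles for red light skin and colour for the tissue each connexin is known for. The filled circles stand above the open ones for Gja3, Gjb2, Gjb6 and Gja1 and below them for Gja5, Gjc1 and Gjc3.

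Gjb2 went from 10.1 FPKM in untreated to 457 FPKM in red light skin. This is a ratio of 45.1-fold (log2 5.50), and by level Gjb2 ranked 1244 of all rows in untreated and 78 in red light skin. Gjb6, whose subunits can share channels with those of Gjb2, was at 1.46 and 37.4 FPKM, 25.6-fold higher (log2 4.68). The 2 epithelial members therefore had a median log2 ratio of 5.09, against −1.21 over all listed genes. Gjb2 was the more abundant of the pair per length in both groups, 6.95 times the level of Gjb6 in untreated skin and 12.2 times after red light.

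Among the 7 listed connexins, Gja1 was the most abundant in both groups. Its level was 60.6 FPKM in untreated and 506 FPKM in red light skin, 8.34-fold higher (log2 3.06). The absolute gain of Gja1, 445 FPKM, was close to the 447 FPKM gained by Gjb2, although the ratio of Gja1 was the smallest of the 4 connexins labelled higher. Gja1 stood at 5.99 times the level of Gjb2 in untreated skin and at 1.11 times after red light.

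Gja3 had the largest ratio and the lowest starting level of the 7 listed connexins. Its level went from 0.08 to 16.5 FPKM, 206-fold higher (log2 7.69). The size of this ratio rests on the low untreated level: with 1 FPKM added to both means the log2 ratio was 4.02. In red light skin Gja1 stood at 30.7 times and Gjb2 at 27.7 times the level of Gja3, against 758 times and 127 times in untreated skin. Of the 22 other lens genes examined, only the crystallins Cryba4 and Cryab were listed, and in opposite directions. Cryba4 went from 1.05 to 106 FPKM, and Cryab, a small heat shock protein that muscle also makes, from 448 to 147 FPKM.

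Gja3, Gjb2 and Gjb6 are adjoining genes. In RefSeq (GRCm38.p6) they follow each other on chromosome 14 with 0 other protein-coding genes between them, and all 3 were listed as higher. None of the 8 flanking protein-coding genes (4 on each side) had a row in the table, for example Zmym2, Cryl1 and Ift88. In a filtered table a missing row says nothing about the level or change of a gene. Gja1 lies apart on chromosome 10.

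The start regions of the 4 connexins labelled higher are shown because these genes share a label and 3 of them are neighbours. Each runs 5′ to 3′ from 250 bases before to 50 after a RefSeq start (GRCm38.p6), at chr14:57057981-57058280 on the minus strand for Gja3 (the farther upstream of its 2 starts), chr14:57104653-57104952 minus for Gjb2, chr14:57133562-57133861 minus for Gjb6 and chr10:56377050-56377349 plus for Gja1. Capitals mark matches on either strand to 5 motifs, TATAAA for the TATA-binding protein, GGGCGG for SP1-type factors, TGANTCA for AP-1, CTTTGA for TCF/LEF factors and AACCNGTT for grainyhead-like factors, and no marked matches overlap.
Gja3: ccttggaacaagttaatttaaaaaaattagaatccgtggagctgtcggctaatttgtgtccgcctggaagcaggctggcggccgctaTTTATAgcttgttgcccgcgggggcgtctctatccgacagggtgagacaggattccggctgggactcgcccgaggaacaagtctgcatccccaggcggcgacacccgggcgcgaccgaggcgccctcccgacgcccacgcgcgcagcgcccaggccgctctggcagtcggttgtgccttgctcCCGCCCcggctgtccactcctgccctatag
Gjb2: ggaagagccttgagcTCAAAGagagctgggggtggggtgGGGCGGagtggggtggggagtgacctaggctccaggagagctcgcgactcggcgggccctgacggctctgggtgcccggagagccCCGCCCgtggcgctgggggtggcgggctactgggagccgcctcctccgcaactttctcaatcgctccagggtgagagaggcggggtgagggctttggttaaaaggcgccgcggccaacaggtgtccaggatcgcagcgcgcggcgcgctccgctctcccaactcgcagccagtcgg
Gjb6: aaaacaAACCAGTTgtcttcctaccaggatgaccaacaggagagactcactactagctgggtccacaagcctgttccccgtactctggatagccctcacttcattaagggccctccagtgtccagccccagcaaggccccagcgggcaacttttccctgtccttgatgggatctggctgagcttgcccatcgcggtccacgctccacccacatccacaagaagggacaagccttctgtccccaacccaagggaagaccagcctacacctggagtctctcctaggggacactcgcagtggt
Gja1: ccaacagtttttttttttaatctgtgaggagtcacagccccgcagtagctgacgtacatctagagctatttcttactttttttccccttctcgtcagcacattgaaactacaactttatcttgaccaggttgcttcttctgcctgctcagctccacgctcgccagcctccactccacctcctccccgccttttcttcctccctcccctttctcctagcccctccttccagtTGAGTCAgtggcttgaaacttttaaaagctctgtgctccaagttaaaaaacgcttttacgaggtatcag

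No motif of the 5 occurred in all 4 of these regions. The SP1-type motif matched in Gja3 and, with 2 matches, in Gjb2, and it is held by 35.7% of the 32841 RefSeq start regions of this length. This start region of Gja3 also held a TATA-binding motif (13.6% of all regions) and Gjb2 a TCF/LEF match (16.0%). Gjb6 held only a grainyhead-like match, which 2.09% of all regions have, and Gja1 only an AP-1 match, which 7.81% have. The other start region of Gja3, with 76.0% G and C, held none of the 5 motifs. Of the connexins labelled lower, Gja5 held an SP1-type match and Gjc3 a TCF/LEF match. The regions also differed in base composition, with 70.0% G and C in Gjb2, 63.3% in Gja3, 57.3% in Gjb6 and 47.7% in Gja1, beside a median of 52.7% over all regions. These matches describe the letters in the window and not bound sites.

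The vascular members Gja5 and Gjc1 had the smallest differences of the 7 listed connexins. Gja5 went from 2.21 to 1.07 FPKM, 2.06-fold lower (log2 −1.04). Gjc1 was at 5.43 and 2.26 FPKM, 2.40-fold lower (log2 −1.26). Their median log2 ratio was −1.15, beside −1.21 over all listed genes and −1.63 over those labelled lower. By size of ratio Gja5 ranked 2463 and Gjc1 1988 of the 2570 rows labelled lower. With both groups rescaled to the same summed FPKM of listed rows outside hair genes, neither kept a log2 ratio of −1 or less. Gja5 was then at −0.70 and Gjc1 at −0.92. That sum covers only rows selected on this contrast, so the rescaling is not a correction for the whole library. It includes the listed skeletal muscle genes, at 18883.4 FPKM in untreated and 3191.9 FPKM in red light skin. In the GENCODE M21 annotation (GRCm38) an exon of Gja5 overlaps an exon of Gpr89 on the opposite strand, and strand-specific counting is not stated, so reads of these genes cannot be told apart with certainty. In RefSeq, Gjc1 is also an older name of Gjd3, and the table is read here with the current name.

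The glial connexin Gjc3 had the lowest level of the 7 in red light skin and, among the connexins labelled lower, differed most. It went from 0.933 to 0.163 FPKM, 5.71-fold lower (log2 −2.51). Gjc3 was under 1 FPKM in both groups, and the table gives no read counts from which its precision could be judged. With 1 FPKM added to both means, 0 of the 3 connexins labelled lower kept a log2 ratio of −1 or less, a bound that 36.2% of all listed genes passed. The 4 connexins labelled higher all kept a log2 ratio of at least 1 on that scale, as did 25.0% of all listed genes.

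**Figure D2:**
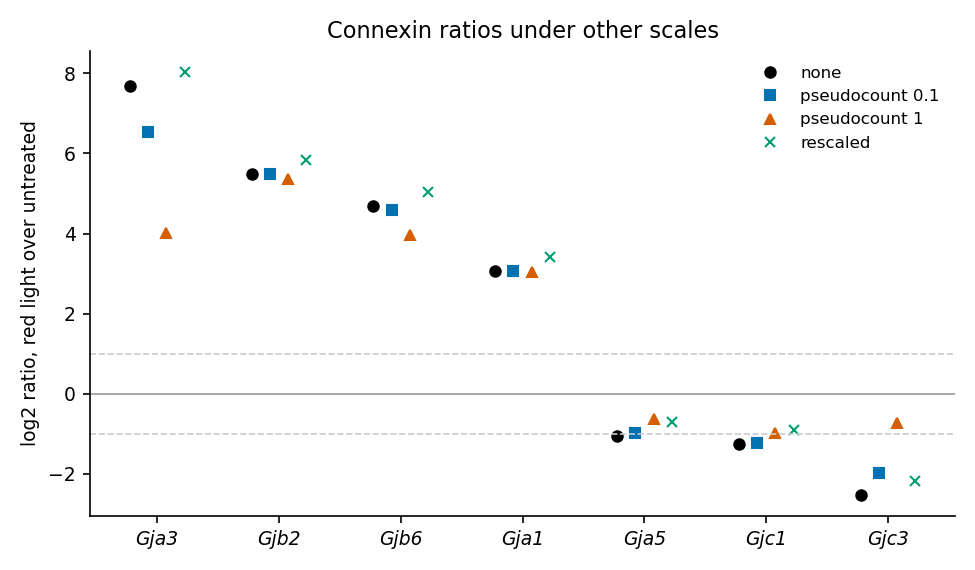
The log2 ratio of red light over untreated for each connexin as deposited, with 0.1 or 1 FPKM added to both means, and after rescaling. Rescaling set both groups to the same summed FPKM of listed rows outside hair genes, and dashed lines mark log2 ratios of 1 and −1. The 4 connexins labelled higher lie above 1 under every scale shown, and the 3 labelled lower lie between −1 and 0 with 1 FPKM added. After rescaling, Gja5 and Gjc1 also lie between −1 and 0 and Gjc3 lies below −1.

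Summed over the 7 connexins, the level was 80.9 FPKM in untreated skin and 1019.9 FPKM after red light, 12.6-fold higher. Gja1 made up 75.0% of the untreated sum and 49.6% of the red light sum. Gjb2 went from 12.5% to 44.8%, and Gjb6 from 1.80% to 3.66%. The vascular pair made up 9.45% of the untreated and 0.327% of the red light sum, and Gjc3 1.15% and 0.0160%. Together the vascular and glial connexins summed to 8.58 FPKM in untreated skin, where the epithelial pair summed to 11.6 FPKM. In red light skin these sums were 3.50 and 494 FPKM. The medians of the epithelial pair and of the 3 vascular and glial members differed by 6.35 on the log2 scale. These shares cover these 7 connexins only.

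**Figure D3:**
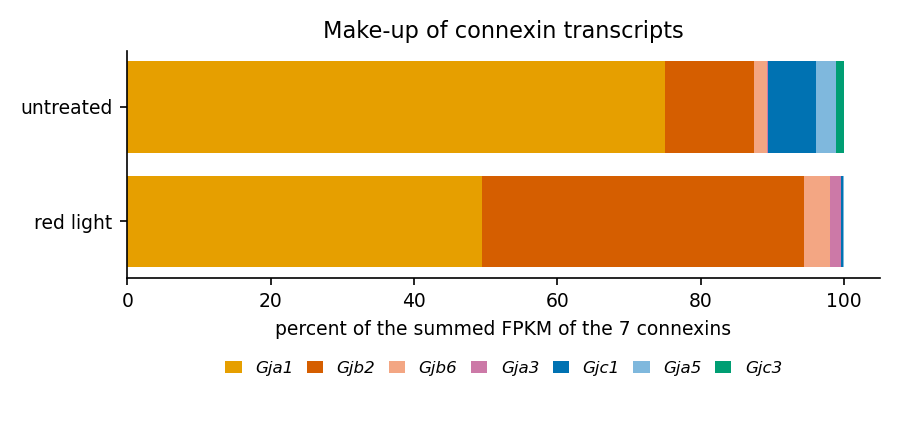
Share of the summed FPKM of the 7 connexins held by each of them, in percent, in untreated and red light skin. Gja1 takes 75.0% of the untreated bar and 49.6% of the red light bar, and Gjb2 12.5% and 44.8%.

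Listed hair matrix and root sheath markers had the direction of Gjb2, Gjb6 and Gja1. Nearly all listed vessel and nerve markers had the direction of Gja5, Gjc1 and Gjc3, which was also that of 61.4% of all rows. Other cell types in which Gja1, Gjb2 or Gjb6 occur went against these 3 connexins. Of the listed markers, 10 of 11 from fibroblasts and 9 of 13 from suprabasal epidermis were lower, as were all 23 from endothelium. With FPKM from whole skin, fewer cells of a type, less RNA per cell and dilution by other transcripts cannot be told apart. Of 38 hair matrix and root sheath genes, 35 were listed, all 35 as higher, beside 38.6% of all rows. Their median log2 ratio was 7.98 and their summed level 139.7 FPKM in untreated and 25327.5 FPKM in red light skin. None of them was at 0 in either group. The shaft keratins Krt82 and Krt35 had the largest ratios, going from 0.123 to 64.8 and from 0.967 to 444 FPKM. Both started under 1 FPKM. The log2 ratio of Gja3 was exceeded by 19 of these 35 genes, that of Gjb2 by 27, that of Gjb6 by 30 and that of Gja1 by 31. The part of the hair markers' change in the connexin values was not tested.

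Other epithelial markers differed less than the epithelial connexins. Of 11 outer root sheath and bulge genes, 8 were listed, 5 higher and 3 lower, with a median of 1.36 and a summed level of 928 and 2054 FPKM. All 4 connexins labelled higher had a larger log2 ratio than any of these 8. Lhx2, a transcription factor of follicle stem cells, was 6.80-fold higher, and the keratin Krt6b 17.8-fold lower. Of 19 suprabasal epidermis genes 13 were listed, 4 higher and 9 lower, with a median of −1.46 and a sum of 6859 and 2509 FPKM. Tgm3, a transglutaminase that cross-links hair and epidermal proteins, was 15.3-fold higher and the keratin Krt77 5.40-fold lower. Among 12 basal epidermis genes 4 were listed, with Cdh3 (P-cadherin) 2.94-fold higher and the laminin chain Lamb3 3.10-fold lower. The median of the 4 was −1.23 and their sum 132 and 74.0 FPKM. Over all rows 61.4% were labelled lower, and the part of these epidermal genes in the values of Gjb2 and Gjb6 was not tested.

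**Figure D4:**
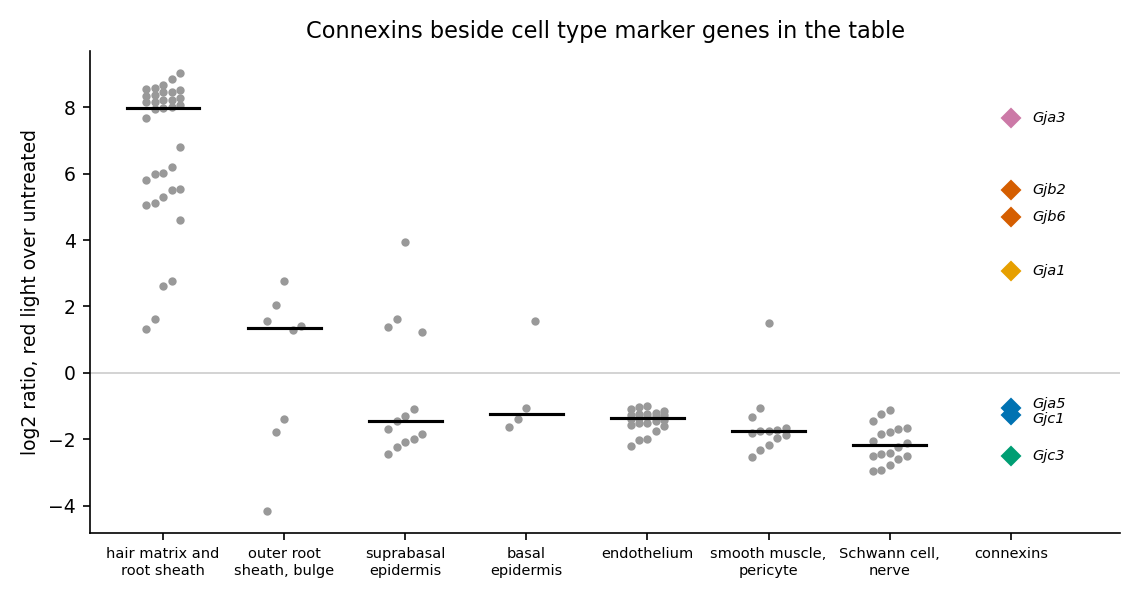
The log2 ratio of red light over untreated for listed marker genes of 7 cell types (grey points, with a black bar at the median) and for the 7 connexins (coloured diamonds). Gja3, Gjb2, Gjb6 and Gja1 lie within the spread of the hair genes and above the outer root sheath genes, and the 3 connexins labelled lower lie within the range of the vessel and nerve genes.

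On the vascular side, 23 of 32 endothelial genes were listed and all 23 were lower, in a table with 61.4% of rows lower. The endothelial genes had a median of −1.37 and a summed level of 508 and 198 FPKM. Of these, 21 had a lower log2 ratio than Gja5. The tight junction gene Cldn5 was 4.62-fold and Mmrn1 4.06-fold lower, while the adhesion molecule Pecam1 was 2.85-fold lower. Of 20 smooth muscle and pericyte genes 13 were listed and 12 were lower, with a median of −1.75 and a sum of 1901 and 546 FPKM. Des and Synpo2 led them, at 5.83-fold and 4.98-fold lower, and Des is shared with skeletal muscle. The largest parts of the sum were those of Tpm2, at 1122.5 and 286.9 FPKM, and Des, at 471.5 and 80.9 FPKM. The sum therefore does not describe vessel cells alone, and Tpm2 was picked out after its values were seen. Of these 13 genes, 11 had a lower log2 ratio than Gjc1. None of the listed vascular markers was at 0, and their part in the values of Gja5 and Gjc1 was not tested.

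On the glial side, 18 of 24 Schwann cell and nerve genes other than connexins were listed and all 18 were lower. Over all rows 61.4% were labelled lower and 38.6% higher. The Schwann cell and nerve genes had a median of −2.17 and a summed level of 519 and 151 FPKM. The largest parts of this sum were those of Pmp22, at 152.3 and 56.3 FPKM, and Fa2h, at 149.9 and 46.85 FPKM. The sum therefore rests largely on a few genes, and Pmp22 and Fa2h were picked out after their values were seen. Cdh19, a cadherin of Schwann cells, was 7.71-fold lower and Cmtm5 7.65-fold lower. Mbp, a structural protein of myelin, went from 122.8 to 23.2 FPKM. The log2 ratio of Gjc3 was lower than that of 14 of the 18. None of the 18 was at 0 in either group, and their part in the values of Gjc3 was not tested. Among further cell types, 19 of 20 skeletal muscle genes were listed and all were lower (median −2.62), 10 of 14 melanocyte genes were listed and all were higher (median 5.33), 10 of 11 listed fibroblast genes were lower (median −1.59), and all 13 listed macrophage genes were lower (median −1.22). Of 12 genes of heart muscle and conduction, tissues that share Gja5 and Gjc1, 4 were listed and lower (median −1.41). Myl4 was at 4.25 and 1.63 FPKM and Tnnt2 at 6.95 and 2.56 FPKM. Tbx5, picked out after its values were seen, was under 1 FPKM in both groups, at 0.22 and 0.017 FPKM. The samples were dorsal skin, and the source of these transcripts was not tested.

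Proteins that bind connexins or govern their trafficking went in both directions. Of 44 such genes 10 were listed, 3 higher and 7 lower, in a table with 38.6% of rows higher and 61.4% lower. Their median was −1.35 beside the −1.21 over all listed genes. Tjp3, a scaffold of the zonula occludens family, went from 10.8 to 3.41 FPKM (3.16-fold lower). Ctnnb1, the adherens junction protein beta-catenin, was 2.01-fold higher. Cav1 and Cav2, membrane scaffolds abundant in vessels and fat, were 2.16-fold and 2.54-fold lower. Cdh2 (N-cadherin) was 3.36-fold lower and Ccn3, a matricellular protein reported to bind connexin 43, 2.57-fold lower. The largest difference in this list was that of Cldn5, given above with the endothelial genes. Tjp3, Ctnnb1, Cav1, Cav2 and Ccn3 were chosen for mention after their values were seen.

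Genes of the signalling pathways that open, close or phosphorylate gap junctions were listed in both directions. Of 83 such genes 25 were listed, 6 higher and 19 lower, in a table with 61.4% of rows lower. Their median log2 ratio was −1.31, while the sum of their levels was 312 FPKM in untreated and 526 FPKM in red light skin, so the median and the sum point in opposite directions. The higher members were 4 of the 5 listed tubulins, the small GTPase Hras and the mitotic kinase Cdk1, which phosphorylates Gja1 in dividing cells. Tubb3 had the largest ratio, from 1.83 to 28.6 FPKM, 15.6-fold higher, while the tubulin Tubb4a went from 2.86 to 0.83 FPKM, 3.45-fold lower. Among the lower members, Egf, a growth factor whose receptor signalling closes connexin 43 channels, went from 4.41 to 0.740 FPKM, 5.96-fold lower. Of the cyclic GMP branch, Gucy1a1, Gucy1b1 and Prkg1 were 3.49-fold, 2.67-fold and 4.15-fold lower, and of the adenylyl cyclases Adcy1, Adcy2 and Adcy4 were 5.23-fold, 3.16-fold and 2.37-fold lower. Tubb4a and these cyclase and kinase genes were picked out after their values were seen, and 4 listed members of the list were under 1 FPKM in both groups.

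The genes nearest to each connexin were found from the distance between their 2 group means on the log2 scale, a likeness over 2 values only. For Gjb2 they were Pinlyp, at 8.16 and 445 FPKM (distance 0.31), and Krt75, a keratin of the follicle's companion layer, at 6.84 and 311 FPKM (0.79). For Gjb6 they were Adh6b (0.23) and the melanin synthesis gene Tyrp1 (0.43), and for Gja1 the metallothionein Mt4 (0.82) and the cornified envelope gene Cnfn (0.87). Gja3 was nearest to Otop2, a proton channel (0.55), and to the hair gene Krtap5-2 (0.61). Near Gja5 lay Slc4a4 (0.01) and Lair1 (0.03), near Gjc1 Dysf (0.03) and Fhod1 (0.04), and near Gjc3 Nell1 (0.02) and Car8 (0.06).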

How the data were processed

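Total RNA from dorsal skin was poly(A)-selected and made into libraries with an NEBNext Ultra kit, per the labels' protocols. Bowtie2 2.2.8, DESeq2 1.40.2, R 4.3.1 and RSEM appear in the submitters' processing notes with no role; their genome build is not given in these sources. Per the file headers, the deposited table holds each group's mean in FPKM, as the authors computed it, and labels every gene UP or DOWN; the criteria of its filter are not given. It has no p-value, single library values or read counts, so depth is unknown and no test was run. All value columns were used.

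Ratios are red light mean over untreated mean, with no pseudocount; genes were counted by the authors' label. For 6 rows (Col1a1, Col3a1, Col4a5, Col5a1, Col5a2 and Tgfb1) the means disagreed with the sorted order of the table; none is a connexin, and none is named above. The order check allowed 0.01 (log2) beyond 5 rows on each side and, with the ratios and counts, was tested on simulated data. Connexins and the gene lists, written from textbook knowledge, were chosen with earlier results of these data known. Connexins were left out of the other lists, and some genes are not reported here or counted in any list. Named genes are all listed connexins, per list the 2 largest ratios at 1 FPKM or more in either group, the 2 genes nearest to each connexin, and defining markers; others are said to be picked afterwards. Start regions came from RefSeq (GRCm38.p6), where 6 of the 7 connexins matched. Python 3.11.15, numpy 2.4.6, pandas 2.3.3 and matplotlib 3.10.9 were used.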

Additional observations from a re-analysis of the deposited data

How the results depend on the processing

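No result reversed under any alternative run: of 60 recomputed values 51 moved by no more than 1.5-fold and 9 by more. The 51 include values that an alternative could not change, such as the vascular median when Gja3 was counted as epithelial. The tally is therefore no measure of robustness. The count of 4 connexins higher held under all 6 alternatives. The count of 3 lower became 0 at a log2 ratio of −1 or less with a pseudocount of 1, 1 (Gjc3) at that ratio after rescaling both groups to the same sum outside hair genes and 1 at a ratio of −2 or less; the stricter bounds shrink it by construction. With a pseudocount of 1 the glial value, that of Gjc3 alone, was −0.73 in place of −2.51 and the epithelial minus vascular and glial difference 5.40 in place of 6.35, and the log2 ratios were 4.02 (Gja3) and 3.96 (Gjb6); with 0.1, Gja3 was at 6.53. A pseudocount shrinks ratios of low genes and cannot reverse them. Rescaling, to a sum over listed rows only, shifted every log2 ratio, and so the median of all genes, by 0.35. This is a factor of 1.27, under the 1.5-fold bound, so it could neither move nor reverse any connexin ratio or median. Counting Gja3 as epithelial, chosen after seeing the data, gave a difference of 6.76, and counting Gja1 as epithelial or as vascular 5.94 or 6.24. With the minimum no glial value could be had. Leaving out replicates was not run, as there were no library columns to drop. No paired analysis was possible because only the mean of each group was at hand. Depth is unknown, which leaves the precision of Gjc3 and untreated Gja3, under 1 FPKM, unjudged.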

Other observations

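Tight junction genes, which seal the space between the same cells that gap junctions couple, also went in both directions. Of 32 such genes 16 were listed, 7 higher and 9 lower, beside 38.6% and 61.4% of all rows. Their median log2 ratio was −1.19, close to the −1.21 over all listed genes. Their sum was higher in red light skin, at 355 against 265 FPKM. The epidermal claudins Cldn1 and Cldn4 went from 49.1 to 105 and from 61.0 to 160 FPKM, or 2.14-fold and 2.63-fold higher, while Cldn23, also known from epidermis, went from 17.3 to 4.99 FPKM (3.47-fold lower) and Cgn, the junction plaque protein cingulin, from 14.7 to 6.52 FPKM (2.26-fold lower). Among the listed genes above 0 in both groups, Cldn14 had the largest ratio, from 0.0433 to 6.10 FPKM. The size of its ratio rests on the low untreated level. Cldn17, listed at 0 in the untreated group, was at 0.25 FPKM in red light skin. The myelin claudins Cldn19 and Cldn11 were 5.88-fold and 3.75-fold lower, in the direction of Gjc3, and endothelial Cldn5 was 4.62-fold lower, in the direction of Gja5. Cldn1, Cldn4, Cldn11, Cldn17, Cldn23 and Cgn were picked out after their values were seen.

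Of 9 genes of other large-pore channel families (pannexins and CALHM proteins), 3 were listed. Calhm4 went from 0.243 to 121 FPKM, 497-fold higher, which is a larger ratio than that of any listed connexin. The size of this ratio rests on an untreated level under 1 FPKM. Calhm5 was 4.24-fold higher, and Panx3, a pannexin known from bone, cartilage and keratinocytes, went from 4.52 to 1.88 FPKM.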
